A study of Oryza sativa with 36 samples.

Results

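The type-A response regulators of rice are the members of the cytokinin signalling pathway described here. They were taken as the single-gene probe sets of the Affymetrix Rice Genome Array whose gene is named *RR1* to *RR10*, with or without the prefix Os. The rule found 6 genes, *OsRR1*, *OsRR2*, *OsRR4*, *OsRR5*, *OsRR6* and *OsRR9*, with 1 probe set each, out of 17905 genes with such a probe set and 57194 probe sets in all. Of the 8 genes that RefSeq names in this way, *OsRR7* and *OsRR10* had no single-gene probe set, and neither *OsRR3* nor *OsRR8* is named in the tables used. *OsRR9* and *OsRR10* are known as near-identical copies, so the signal of the *OsRR9* probe set may include *OsRR10*. The probe set of *OsRR4* carries the suffix s, which the array's maker gives to probes that can bind more than 1 transcript.

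The shoots came from 2-week-old seedlings of the *indica* rice varieties RH (Rathu Heenati), which is resistant to the brown planthopper (BPH), and TN1 (Taichung Native 1), which is susceptible. Seedlings were left to grow naturally (C), were pricked 15 times each with a needle at the base (N), or were given about 100 third-instar BPH nymphs per pot, about 10 per seedling (P), and shoots were taken at 6 or 24 h. The 12 groups are written by variety, hour and treatment, so that R24P is RH at 24 h of infestation and T6C is untreated TN1 at 6 h. Each group had 3 arrays, and each array held the pooled shoots of the 10 seedlings of 1 pot, so that the 2 varieties stand for 1 genotype each and single plants were not measured.

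Cytokinins are plant hormones that promote cell division, delay leaf ageing and shape how shoots draw on nutrients. They are bound by histidine kinase receptors, which pass a phosphate through small phosphotransfer proteins to the type-B response regulators, transcription factors of the nucleus. The type-B regulators switch on the type-A genes within a short time of cytokinin treatment. The type-A proteins carry the phosphate-receiving domain but lack the DNA-binding part of type-B proteins, and they feed back negatively on the pathway, so their transcripts are commonly used as a readout of cytokinin response.

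Array medians lay between 35.8 and 39.8, and the mean correlation of an array with the rest of its group was 0.989 or above. Most leaf marker probe sets were bright, with group means of 15113 to 17933 for 1 of the chlorophyll-binding protein gene *CAB2R*. Probe sets of the leaf gene *RBCS* varied, with 1 at 18131 to 20367 and another at 373 to 598. A further *RBCS* probe set lay at 14.1 to 23.1, under every array median. The root silicon transporter gene *LSI2* lay between 10.4 and 15.4, under every array median, while *LSI1*, the other root marker measured, lay between 120.5 and 211. No shoot marker probe set, of 10, changed by 2-fold or more in any infestation comparison, and their median difference in T24P/T24C was 0.21 on the log2 scale. These were probe sets of *CAB2R*, *RBCS* and the leaf gene *RCA* only. In T24P/T24C 3.53% of all probe sets were at least 2-fold higher and 3.13% lower with limma's adjusted p under 0.05. None of 10 is near that share, so it does not show that the tissue was unchanged. T24P replicate 1 had the lowest value of its group for all 6 type-A genes, against 38.0% of all probe sets. R6N replicate 2 was likewise lowest for all 6 (29.3% of all probe sets), and R24P replicate 2 and T6P replicate 2 were highest for all 6 (34.1% and 31.7%). Where leaving out T24P replicate 1 changed a call given here, the value without it is given too. In whole shoots, fewer cells expressing a gene and less RNA of that gene per cell cannot be told apart.

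By limma's adjusted p, 6 of the 6 type-A genes were lower after 24 h of infestation in TN1, as were 14.9% of all probe sets. In RH 5 of the 6 were lower, the exception being *OsRR5*, against 6.23% of all probe sets. By a test of the difference 4 of the 6 fell further in the susceptible TN1, where 5.39% of all probe sets had a difference of that sign that passed. The lowest group mean of each of the 6 genes was in T24P. A probe set is called differential below where limma's adjusted p was under 0.05 and the fold change was at least 2.

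*OsRR1* was near 1000 in the untreated TN1 shoots at 24 h, with intensities of 913, 1050.2 and 1149 on the 3 T24C arrays. The T24P arrays gave 131, 436 and 321. Every infested array lay below every untreated one, and the fall was 3.91-fold (log2 difference -1.97 ± 0.23, SE, n = 3 arrays per group; adjusted p = 2.56e-08, limma). Each SE, interval and p from limma rests on 1 spread per probe set, shared by all 12 groups. The T24P arrays of *OsRR1* had a log2 SD of 0.90, against 0.17 in T24C. For the other genes the SD in T24P ran from 0.24 for *OsRR5* to 0.74 for *OsRR4*. The limma SEs and p-values for T24P may therefore be too small. In RH the same gene read 1056, 1158 and 1294 in R24C and 381, 589 and 506 in R24P. Again the groups did not overlap, with a fall of 2.41-fold (log2 -1.27 ± 0.23, adjusted p = 0.000172). *OsRR1* was thus differential in both varieties.

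*OsRR4* behaved in a similar way. Its T24C arrays read 329.8, 390.1 and 408 and its T24P arrays 50.8, 140.4 and 94.2, a fall of 4.28-fold (log2 -2.10 ± 0.21, adjusted p = 2.14e-09). For RH, the R24C values of 403, 434 and 428 stood against 160.4, 237 and 212 in R24P, a fall of 2.10-fold (log2 -1.07 ± 0.21, adjusted p = 0.000549). No infested array of either variety reached the untreated range. Without R24P replicate 1 the log2 difference in RH was -0.91 (adjusted p = 0.0058), which is under the 2-fold limit.

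*OsRR9* showed the deepest fall of the 6 in TN1, from 888, 1023 and 1019.9 in T24C to 146, 298 and 258 in T24P, or 4.36-fold (log2 -2.12 ± 0.19, adjusted p = 1.95e-10). In RH it went from 745, 858 and 737 to 335, 528 and 477, which was 1.77-fold lower (log2 -0.83 ± 0.19, adjusted p = 0.00256). Neither pair of groups overlapped, but the RH fall was under 2-fold.

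*OsRR6* had T24C values of 1893, 1746 and 1951 against 401, 779.6 and 618 in T24P, a fall of 3.22-fold (log2 -1.69 ± 0.14, adjusted p = 7.95e-11). Its R24C values of 1485, 1400.0 and 1394 fell to 783, 913 and 826 in R24P, 1.70-fold lower (log2 -0.77 ± 0.14, adjusted p = 0.000323). *OsRR2* dropped from 377, 423 and 394 to 86.8, 179 and 137 in TN1, or 3.09-fold (log2 -1.63 ± 0.16, adjusted p = 7.86e-10). Both genes passed in TN1 with groups far apart. In RH *OsRR2* had the smallest log2 difference of the 6, from 403, 364 and 368 to 245, 312 and 266 (log2 -0.47 ± 0.16, adjusted p = 0.0384), and this value lost its adjusted p without any of 5 of the 6 arrays.

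*OsRR5* was dim. Its 3 arrays read 70.5, 55.0 and 40.3 in T24C and 27.8, 30.0 and 38.1 in T24P (log2 -0.77 ± 0.23, adjusted p = 0.00882), and 51.1, 45.3 and 49.0 in R24C and 35.3, 37.7 and 28.4 in R24P (log2 -0.53 ± 0.23, adjusted p = 0.119). The infested values lay under the median of their array, except on R24P replicate 2 (37.7 against a median of 36.3), so a fall read against them may be a lower bound. The TN1 fall of *OsRR5* passed the adjusted p but not the 2-fold limit.

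In T24P/T24C, 5 of the 6 genes were thus called lower, where 3.13% of all probe sets were called lower. The median log2 difference of the 6 was -1.83, and that of all probe sets was -0.03. In R24P/R24C, 2 of the 6 were called lower, where 0.254% of all probe sets were called lower. By the adjusted p alone 5 of the 6 were lower, against 6.23% of all probe sets, and the median difference was -0.80. All 6 genes had infested arrays entirely below the untreated ones in both varieties, a pattern shown by 19.1% of all probe sets in TN1 and 13.0% in RH. Without T24P replicate 1 the 5 TN1 calls held, with log2 differences of -1.81 for *OsRR9*, -1.70 for *OsRR4*, -1.46 for *OsRR1*, -1.42 for *OsRR6* and -1.34 for *OsRR2*, whereas *OsRR5* no longer passed (-0.67, adjusted p = 0.0542).

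**Figure D1:**
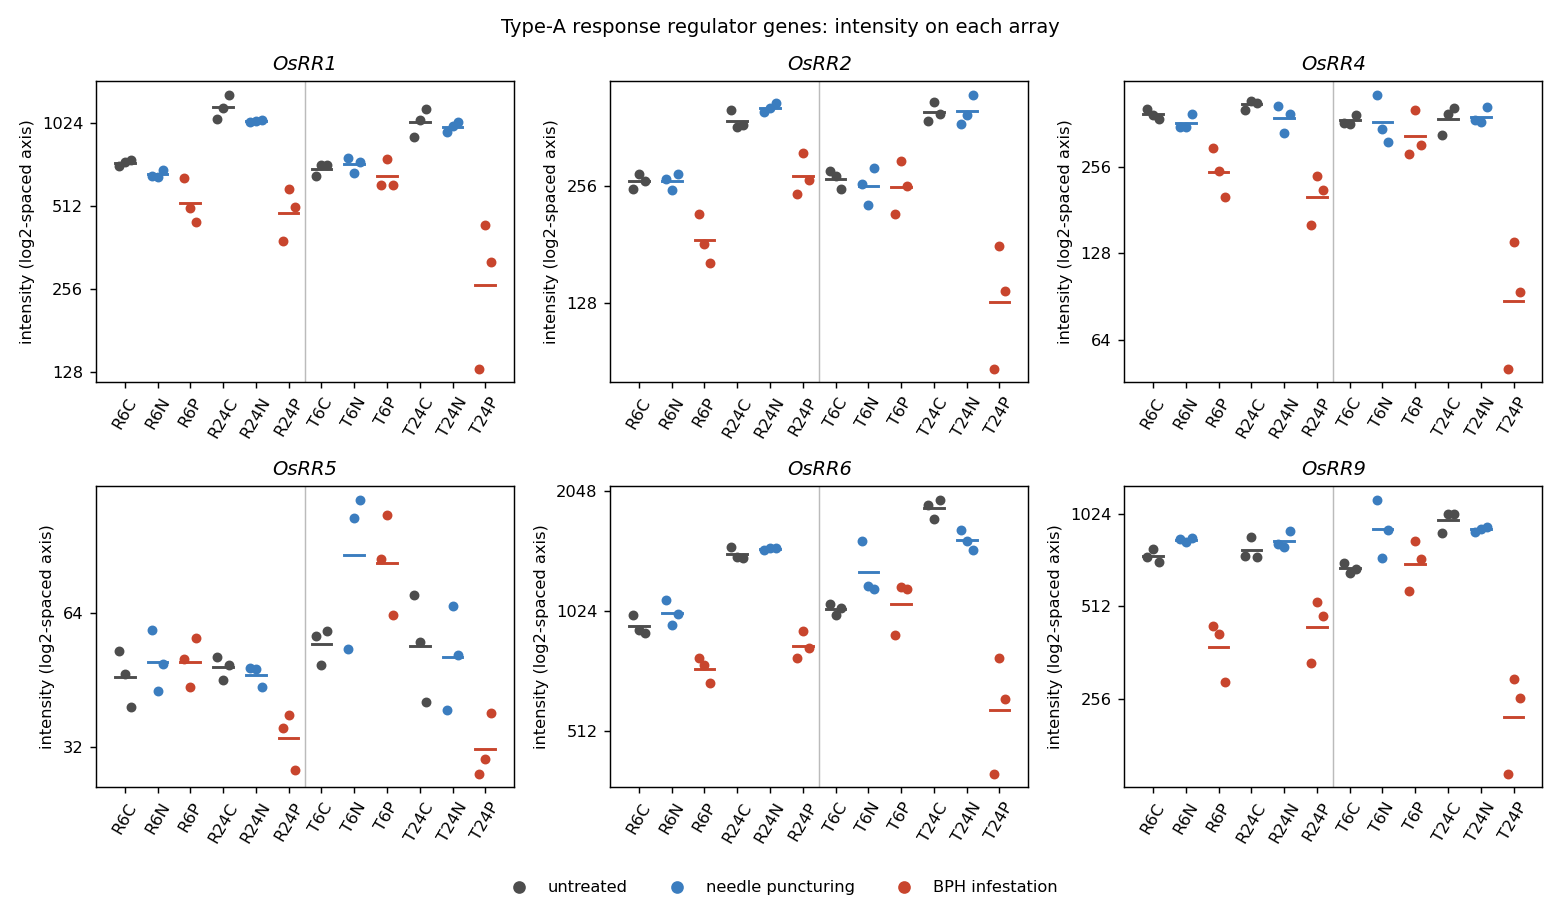
Intensity of the 6 type-A genes on each of the 36 arrays (points, y axis with log2 spacing) in the 12 groups, with a bar at the mean of log2 intensity per group, in grey for untreated, blue for needle puncturing and red for BPH infestation. The T24P arrays were the lowest group for each gene, and T24P replicate 1, the left point of that group, lay at the bottom of it in all 6 panels.

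At 6 h fewer changes passed the test, which alone does not show a difference between the hours. The change in response between the hours was tested directly and is given below. In RH, *OsRR9* had read 738, 788 and 712 in R6C and was at 443, 414 and 290.2 in R6P, a fall of 1.98-fold (log2 -0.99 ± 0.19, adjusted p = 0.0021) that lay just short of the 2-fold limit. Without R6C replicate 3, R6P replicate 1 or R6P replicate 2 the number of infestation calls over the 4 comparisons rose from 7 to 8. In TN1 the same gene read 705, 658 and 676 in T6C and 573, 831 and 729.9 in T6P, with the infested arrays on both sides of the untreated ones (log2 0.05 ± 0.19, adjusted p = 0.947).

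*OsRR1* stood at 712, 741 and 750.4 in R6C and at 645, 505 and 448 in R6P (log2 -0.48, 95% CI -0.94 to -0.02, adjusted p = 0.259). *OsRR4* gave 406, 386 and 376 against 298, 248 and 201 (log2 -0.66, 95% CI -1.09 to -0.23, adjusted p = 0.0833). *OsRR2* gave 253, 275 and 264 against 217, 182 and 163 (log2 -0.50, adjusted p = 0.0701), and *OsRR6* 999.9, 921 and 905 against 783, 749 and 678 (log2 -0.36, adjusted p = 0.18). None of these 4 passed the test, although in each the 3 infested RH arrays lay below the 3 untreated ones.

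Across R6P/R6C, 0 of the 6 genes were called, where 0.0997% of all probe sets were called lower, and 1 passed the adjusted p alone, where 1.71% did. By limma's unadjusted test the 95% interval of 5 of the 6 lay wholly below 0, but the share of all probe sets with such an interval was not counted. The share at an unadjusted p under 0.05 was not counted for any comparison below either, so such counts are description only. The arrays did not overlap, with infested below untreated, for the same 5 genes, where 12.8% of all probe sets showed this. In T6P/T6C limma called none of the 6, with 1 at an unadjusted p under 0.05, where 0.0192% of all probe sets were called lower, and the median difference was -0.01. The value of *OsRR5* in T6P/T6C was 0.61 with a 95% CI from 0.15 to 1.07 (adjusted p = 0.17), from arrays at 56.8, 49.0 and 58.3 in T6C and 85.1, 107 and 63.4 in T6P.

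Needle puncturing, the mechanical counterpart of the insects' stylets, gave no called change in any of the 24 tests of 6 genes in 4 settings. Of all probe sets, 0.156% were called higher and 0.0210% lower in R6N/R6C, 0.385% and 0.0332% in T6N/T6C, 0.0210% and 0% in R24N/R24C, and 0.0507% and 0.00350% in T24N/T24C. Limma's unadjusted p was under 0.05 for 3 of the 24, all in T6N/T6C, and the share of all probe sets at such a p was not counted. The widest value was that of *OsRR5* in T6N/T6C, at 0.67 (95% CI 0.20 to 1.13, adjusted p = 0.163), where T6N replicate 1 read 53.1 and the other arrays 105 and 116. Without that array *OsRR5* was the 1 puncturing call, the only one that leaving out an array gave. At 24 h, when infestation had lowered these genes, the puncturing values for *OsRR1* were -0.17 (95% CI -0.63 to 0.29) in RH and -0.06 (-0.52 to 0.40) in TN1. The R24N arrays of *OsRR1* read 1033, 1036 and 1045 and the T24N arrays 951, 1000.2 and 1027. The T24N arrays overlapped the untreated ones, whereas every R24N array lay below every R24C array, as for 6.61% of all probe sets. In T24N/T24C the punctured arrays of *OsRR6* (-0.27) lay below the untreated ones, as for 7.94%.

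**Figure D2:**
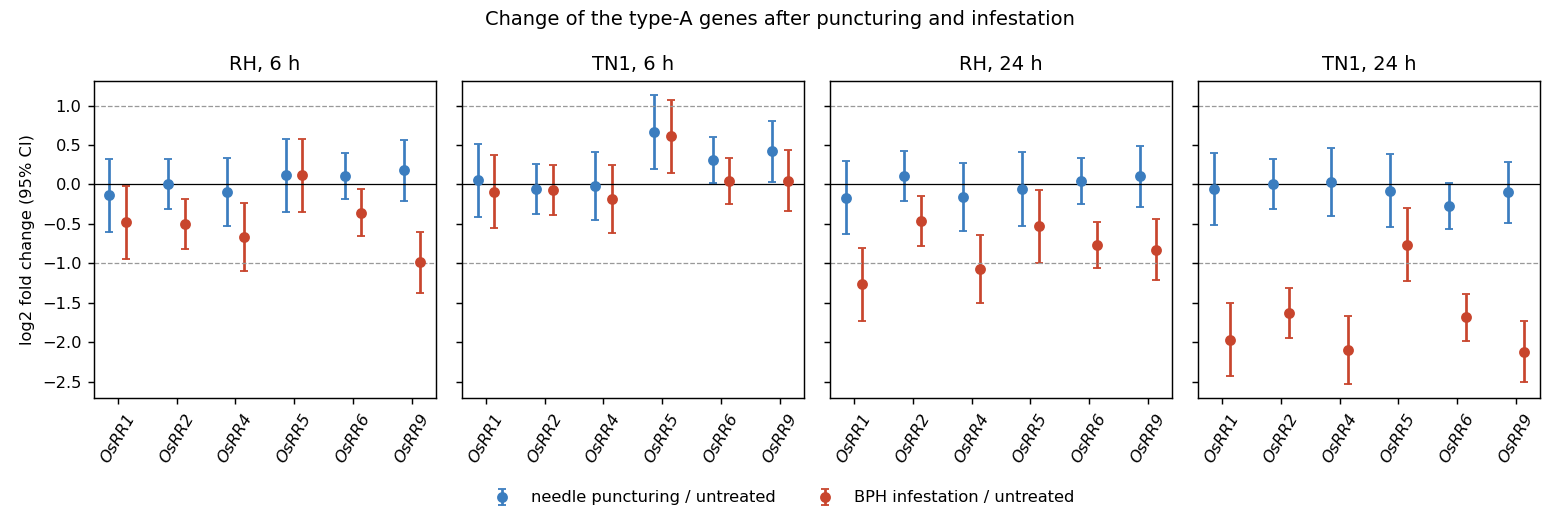
Log2 fold change of the 6 type-A genes against untreated plants of the same variety and hour, for needle puncturing (blue) and BPH infestation (red), with 95% confidence intervals from limma over 36 arrays and dashed lines at 2-fold. The infestation values in TN1 at 24 h ran from -2.12 to -0.77, while all puncturing values lay between -0.27 and 0.67.

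Set directly against punctured plants, infestation gave 5 called falls in T24P/T24N, where 2.96% of all probe sets were called lower, in the 5 genes other than *OsRR5*. The values were -2.12 for *OsRR4*, -2.03 for *OsRR9*, -1.91 for *OsRR1*, -1.63 for *OsRR2* and -1.42 for *OsRR6*, and without T24P replicate 1 all 5 calls held, from -1.73 to -1.15. In R24P/R24N 1 gene was called, *OsRR1* at -1.10 (adjusted p = 0.00128), where 0.157% were called lower, and *OsRR9* at -0.93 and *OsRR4* at -0.91 came next. Without R24P replicate 1 *OsRR1* was at -0.93 there, under the 2-fold limit. In R6P/R6N the 1 call was *OsRR9* at -1.16 (adjusted p = 0.000833), where 0.0752% were called lower. The R6N arrays of *OsRR9* read 845, 829 and 855, all above the 3 R6P arrays, but without R6P replicate 3 the difference was -0.98 (adjusted p = 0.0193), again under 2-fold. Limma called no gene in T6P/T6N, with 0 at an unadjusted p under 0.05, where 0.150% were called lower. These comparisons use the same infested arrays as those against untreated plants and are not separate evidence.

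The difference between the varieties was tested as an interaction, the RH response minus the TN1 response. At 24 h of infestation it passed for 4 of the 6 genes, all with the shallower fall in RH, where 5.39% of all probe sets had a positive interaction past the adjusted p. *OsRR9* had the widest, at 1.30 ± 0.27 on the log2 scale (adjusted p = 0.00176), followed by *OsRR2* at 1.16 ± 0.22 (adjusted p = 0.00078), *OsRR4* at 1.03 ± 0.30 (adjusted p = 0.0248) and *OsRR6* at 0.92 ± 0.20 (adjusted p = 0.0031). The interaction of *OsRR1* was 0.70 with a 95% CI of 0.05 to 1.35 (adjusted p = 0.191), and that of *OsRR5* 0.24 with a CI of -0.42 to 0.89 (adjusted p = 0.752). Neither of these 2 passed, and the interval of *OsRR1* holds the values of the 4 genes that did.

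T24P replicate 1 bears on these values. Without it the interaction was 0.99 for *OsRR9* (adjusted p = 0.0077), 0.87 for *OsRR2* (adjusted p = 0.00193) and 0.66 for *OsRR6* (adjusted p = 0.0108), and 0.63 for *OsRR4*, which no longer passed (adjusted p = 0.118). *OsRR4* also missed the threshold without any of 5 other arrays, R24C replicate 1, R24P replicate 2 or 3, or T24C replicate 2 or 3, with adjusted p between 0.0526 and 0.09. At 6 h the interaction of infestation passed for none of the 6, with an unadjusted limma p under 0.05 for 1, where 0.0472% of all probe sets had a negative interaction that passed. The value of *OsRR9* there was -1.04 (95% CI -1.58 to -0.49, adjusted p = 0.16), with the deeper fall in RH.

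Levels in untreated RH and TN1 shoots were neither shown to differ nor shown to be equal. None of the 6 genes differed by limma's adjusted p in R6C/T6C or R24C/T24C, with 0 and 1 at an unadjusted p under 0.05, where 5.03% and 4.64% of all probe sets were higher and 4.74% and 4.66% lower in RH by the same rule. A count of 0 of the 6 is near these shares. The values ran from -0.25 to 0.13 at 6 h and from -0.38 to 0.17 at 24 h, and the widest was *OsRR6* in R24C/T24C (-0.38, 95% CI -0.68 to -0.09, adjusted p = 0.104). In R24C/T24C every RH array of *OsRR6* and *OsRR9* lay below every TN1 array, a pattern shown by 12.6% of all probe sets. In R24P/T24P, by contrast, *OsRR4* (1.20, adjusted p = 4.15e-05) and *OsRR2* (1.08, adjusted p = 1.84e-06) were called higher in RH, where 2.83% of all probe sets were called higher. With the adjusted p alone 5 of the 6 were higher in RH, *OsRR9* at 0.97, *OsRR1* at 0.88 and *OsRR6* at 0.54 included, where 14.5% of all probe sets were.

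These variety calls turned on single arrays. Without T24P replicate 1 neither call held (0.80 for both *OsRR2* and *OsRR4*). *OsRR1* at 0.37 (adjusted p = 0.0771) and *OsRR6* at 0.27 (adjusted p = 0.112) then no longer passed, so that 3 of the 6 were higher by the adjusted p, *OsRR9* at 0.66 among them. Over the variety comparisons there were 4 calls without T24P replicate 2 or 3 or R24P replicate 1, and 1 without R24P replicate 2. At 6 h of infestation the order was the other way. In R6P/T6P 4 genes were lower in RH by the adjusted p alone, *OsRR9* at -0.90 (adjusted p = 0.000844), *OsRR5* at -0.74, *OsRR6* at -0.54 and *OsRR2* at -0.46, where 7.12% of all probe sets were lower. None of the 4 reached 2-fold. *OsRR2* and *OsRR5* each lost the adjusted p without any of 4 arrays and *OsRR6* without either of 2, T6P replicate 2 among them for all 3 genes (-0.34, -0.56 and -0.47), while *OsRR9* kept it whichever of the 6 arrays was left out.

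Some members also differed between the hours of sampling. In untreated RH, *OsRR1* rose from 712, 741 and 750.4 at 6 h to 1056, 1158 and 1294 at 24 h (log2 0.67, adjusted p = 0.0321), *OsRR2* by 0.52 (adjusted p = 0.0153) and *OsRR6* by 0.60 (adjusted p = 0.0026). In untreated TN1 the rises were 0.57 for *OsRR2* (adjusted p = 0.00863) and 0.84 for *OsRR6* (adjusted p = 4.56e-05), and the value of *OsRR1* was 0.57 (adjusted p = 0.0792). None of these was 2-fold, and 9.53% of all probe sets in RH and 8.12% in TN1 were higher at 24 h by the adjusted p. The call for *OsRR1* in RH missed the threshold without any of 5 of the 6 arrays. *OsRR4* was level over the same hours, at 0.12 (95% CI -0.31 to 0.55) in RH and 0.01 (-0.42 to 0.45) in TN1. For untreated plants, time of day cannot be told apart from age or other differences between the samplings. In treated plants, time since treatment cannot be told apart from these either.

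Under infestation the time course ran differently in the varieties. In T24P/T6P 4 of the 6 genes were called lower, where 5.72% of all probe sets were, namely *OsRR4* (-1.90), *OsRR9* (-1.65), *OsRR5* (-1.39) and *OsRR1* (-1.31). *OsRR2* at -0.98 and *OsRR6* at -0.89 passed the adjusted p alone, so that all 6 were lower at 24 h by it, as were 18.9% of all probe sets. Without T24P replicate 1 *OsRR1* was at -0.81 and no longer 2-fold lower, and 3 calls were left. In R24P/R6P none was called, where 1.30% of all probe sets were called lower and 1.89% higher, and by the adjusted p alone only *OsRR2* differed, 0.55 higher at 24 h (adjusted p = 0.00894), where 10.5% of all probe sets were higher.

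**Figure D3:**
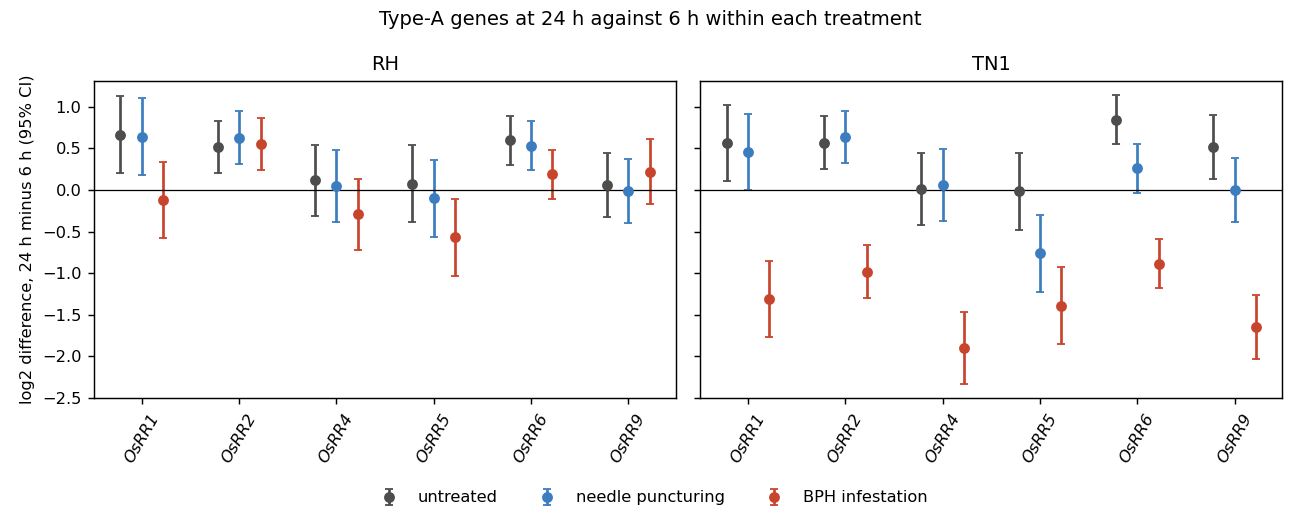
Log2 difference between 24 h and 6 h of the 6 type-A genes within untreated (grey), punctured (blue) and infested (red) plants of RH and TN1, with 95% confidence intervals from limma. In TN1 the infested values ran from -1.90 to -0.89, and in RH from -0.57 to 0.55.

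The change in response from 6 to 24 h, which sets the infested plants against the untreated plants of each hour, passed for 6 of 6 genes in TN1, where 10.4% of all probe sets had a negative value that passed. The values ran from -2.17 for *OsRR9* (adjusted p = 5.69e-07) to -1.38 for *OsRR5* (adjusted p = 0.00185), and all 6 passed also without T24P replicate 1, from -1.86 to -1.27. In RH it passed for 0 of 6 in limma, with an unadjusted p under 0.05 for 1, where 3.17% had a negative value that passed, and the values ran from -0.79 for *OsRR1* (95% CI -1.44 to -0.13, adjusted p = 0.118) to 0.16 for *OsRR9* (-0.39 to 0.71). The difference between the varieties in this change was tested directly and passed for 4 genes, *OsRR9* at 2.33 ± 0.38 (adjusted p = 0.00117), *OsRR2* at 1.59 ± 0.31 (adjusted p = 0.00525), *OsRR4* at 1.50 ± 0.42 (adjusted p = 0.0394) and *OsRR6* at 1.32 ± 0.29 (adjusted p = 0.00987), where 2.74% of all probe sets had a positive value that passed. *OsRR4* missed the threshold in 17 of 32 alternatives, without T24P replicate 1 among them (1.11, adjusted p = 0.0539), and *OsRR1* (1.09, adjusted p = 0.167) and *OsRR5* (0.73, adjusted p = 0.379) did not pass.

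The order of the 12 group means was alike in its lower end for most genes. *OsRR1* was highest in R24C (1169 ± 119, SD, n = 3), followed by R24N, T24C and T24N (992.6 ± 38.5), then by the other 6 h groups, then by R6P (533 ± 101), R24P (492 ± 104) and T24P (296 ± 154). Of its 11 neighbouring pairs in that order, 9 had overlapping arrays, and the 2 breaks lay between R24C and R24N and between T24N and R6C. *OsRR2* likewise had its 4 uninfested 24 h groups on top, from 378 ± 21.7 to 408 ± 11.0, and R6P (187 ± 27.7) and T24P (135 ± 46.4) at the bottom.

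For *OsRR4* the 8 uninfested groups lay between 365 and 422, and its 1 break among 11 neighbours was between R24P (203 ± 39.1) and T24P (95.1 ± 44.8). *OsRR9* also had 1 break, above R24P (447 ± 99.8), R6P (382 ± 81.1) and T24P (234 ± 78.7), the 3 lowest groups. *OsRR6* was highest in T24C (1863 ± 106), which stood clear of the next group, and lowest in R6P (736 ± 53.7) and T24P (599 ± 190). *OsRR5* alone had another order, with T6N (91.4 ± 33.5) and T6P (85.1 ± 21.7) on top and R24P (33.8 ± 4.84) and T24P (32.0 ± 5.42) below the rest.

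Over the 12 group means the members other than *OsRR5* ran together, with Pearson's r from 0.783 between *OsRR4* and *OsRR6* to 0.939 between *OsRR1* and *OsRR2*. *OsRR5* had r between 0.247 and 0.608 with them. These coefficients are a description over means that share arrays and a sampling hour. By the same measure, over 969 named probe sets that were bright enough and moved enough, the pattern most like that of *OsRR4* was *PRIN2* (r = 0.989), followed by *OsLTPL1*, *RPL9*, *ROMT-17* and *PNP1* down to 0.974. For *OsRR1* it was *CpSecY* (r = 0.956), then *OsMGD1*, *OsNtrC*, *CHL1* and a chaperonin gene, and for *OsRR9* it was *OsRac1* (r = 0.932), then *ARP3*, *OsETTIN2*, *DAPB2* and *GSA*. An r over 0.9 with *OsRR4* was shared by 8.05% of the 969, with *OsRR1* by 2.79% and with *OsRR9* by 0.619%.

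The rest of the cytokinin pathway was read from lists of named genes, as far as these had single-gene probe sets. No IPT or CYP735A gene of the synthesis list had one, so that list held genes of the LOG family only. With a related list of pseudo-response regulators, which are clock proteins, the lists held 37 probe sets in all. Of these, 10 values in the 4 infestation comparisons were called, all 10 rises. None fell by 2-fold or more, and 9 of the 10 calls were left without T24P replicate 1, while the type-A genes gave 7 falls and no rise. Of all probe sets, 3.53% were called higher in T24P/T24C, 0.956% in R24P/R24C, 0.316% in R6P/R6C and 0.309% in T6P/T6C.

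Among the enzymes that release active cytokinin from its riboside phosphates, the LOG family, 3 of 10 probe sets rose in T24P/T24C. *LOGL3* went from 397 ± 71.5 in T24C to 4823 ± 2452 in T24P (log2 3.50 ± 0.28, adjusted p = 2.2e-11), *LOGL9* from 200.0 ± 3.56 to 919 ± 166 (log2 2.18 ± 0.17, adjusted p = 1.1e-11) and *LOGL5* from 259 ± 29.1 to 649.5 ± 132 (log2 1.31 ± 0.11, adjusted p = 1.4e-10). In R24P/R24C 1 of the 10 rose, *LOGL3*, from 436 ± 41.7 to 961 ± 92.1 (log2 1.14 ± 0.28, adjusted p = 0.0047). All 3 rises were larger in TN1 by the interaction, at -2.35 for *LOGL3*, -1.64 for *LOGL9* and -1.11 for *LOGL5*, with adjusted p of 0.0002, 3.7e-05 and 4.1e-05. Of all probe sets, 4.16% had a negative interaction that passed. By the adjusted p alone *LOGL1* was lower in T24P/T24C (-0.60, adjusted p = 8.2e-06), while *LOGL7* (1.00) and *LOG* (0.64) were higher by 1 of their 2 probe sets each. The list's median was 0.48 in T24P/T24C and 0.25 in R24P/R24C.

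Cytokinin oxidases (CKX) break cytokinins down, and 2 of their 6 probe sets were called. *CKX5* was called in both RH comparisons, from 159 ± 35.3 in R6C to 359.9 ± 39.2 in R6P (log2 1.20 ± 0.15, adjusted p = 6.7e-06) and from 143 ± 16.7 in R24C to 429 ± 29.9 in R24P (log2 1.59 ± 0.15, adjusted p = 1.0e-08). At 24 h its rise was larger in RH by the interaction (1.20, adjusted p = 0.00043), and its untreated level there was 142.7 in R24C against 299.6 in T24C. *CKX11* was called in T24P/T24C by 1 of its 2 probe sets, from 379.7 ± 28.7 to 1456 ± 724 (log2 1.83 ± 0.18, adjusted p = 2.1e-09), with an interaction of -1.60 (adjusted p = 0.00015). The other probe set of *CKX11*, dim at 37.5 to 63.6, gave 0.25 (adjusted p = 0.15). By the adjusted p alone *CKX3* was lower in T24P/T24C (-0.71, adjusted p = 0.0043) and *CKX4* higher (0.70, adjusted p = 0.0069).

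Of the receptors and phosphotransfer proteins 3 of 8 probe sets rose in T24P/T24C and 0 in R24P/R24C. The receptor kinase gene *HK3* went from 485 ± 8.88 to 1491 ± 473 (log2 1.57 ± 0.13, adjusted p = 2.4e-11), and the 2 probe sets of the receptor kinase gene *HK5* rose by 1.17 and 1.06. The lower of these was 0.96 without T24P replicate 1 and also fell short of 2-fold without T24C replicate 1. In R24P/R24C *HK3* passed the adjusted p alone at 0.78, and both *HK5* probe sets did at 0.53 and 0.51. The interaction passed for these 3 probe sets, at -0.79, -0.65 and -0.55, where 4.16% of all probe sets had a negative one that passed. The phosphotransfer gene *AHP2* was 0.34 higher in T24P/T24C (adjusted p = 7.5e-05), the receptor kinase gene *HK4* was lower (log2 -0.38, adjusted p = 0.016), and neither probe set of *AHP1* passed.

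Type-B regulators, the activators of the type-A genes, gave 0 calls among 5 probe sets. By the adjusted p alone 4 of the 5 were higher in T24P/T24C, *RR23* at 0.97, *RR24* at 0.83, *RR21* at 0.71 and *RR22* at 0.53, and 2 in R24P/R24C, *RR24* at 0.50 and *RR23* at 0.42, where 15.4% and 8.83% of all probe sets were higher by the same rule. The list's median in T24P/T24C was 0.71, where that of the type-A genes was -1.83. *RR42*, a type-C regulator, whose kind resembles type-A in structure but is not known to be induced by cytokinin, was lower in T24P/T24C (log2 -0.50, adjusted p = 0.00022). The pseudo-response regulators, clock proteins with a related receiver domain, had 0 calls among 6 probe sets and a median of 0.44. With the adjusted p alone 5 of these 6 were higher in T24P/T24C. At 6 h, in R6P/R6C and T6P/T6C, *CKX5* was the only call among all 37 probe sets of the pathway and related lists.

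**Figure D4:**
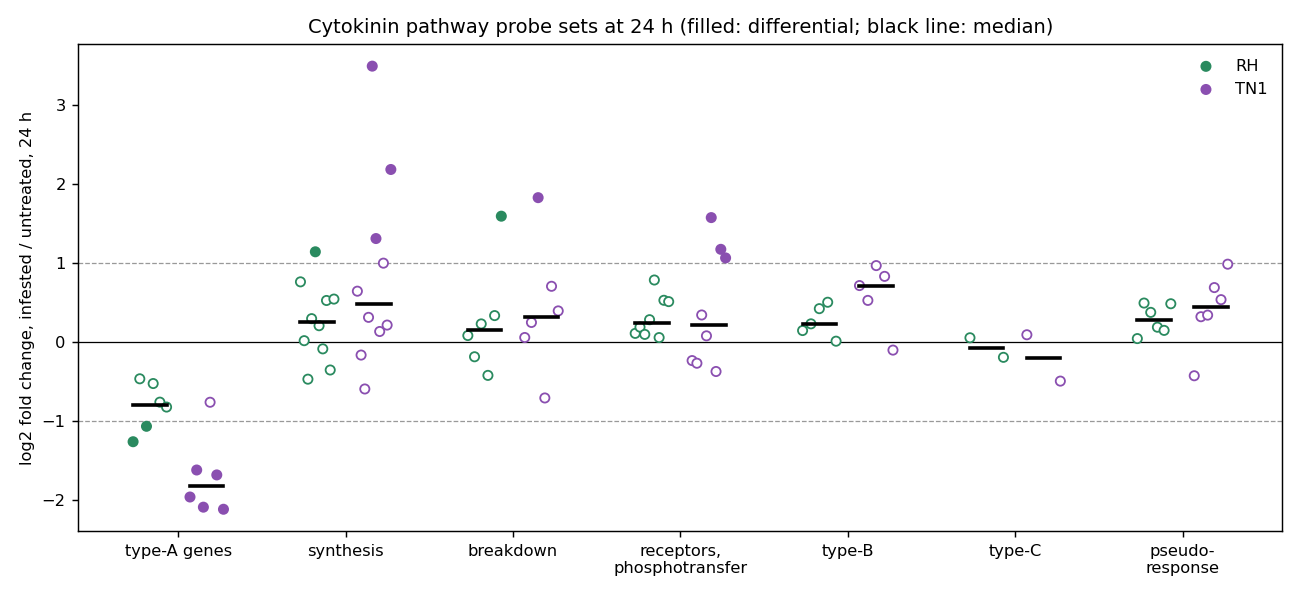
Log2 fold change of infested against untreated plants at 24 h for the type-A genes and 6 lists of cytokinin pathway or related probe sets, in RH (green) and TN1 (purple), with filled points for called probe sets, black lines at list medians and dashed lines at 2-fold. The called type-A points all lay below 0 and the called points of the other lists all above it.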

How the data were processed

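Shoots of 12 groups with 3 arrays each were hybridised to the Affymetrix Rice Genome Array. Each deposited value is the linear intensity of 1 probe set on 1 array, after summarisation and normalization by the authors. RMA and affy are the tools listed in the submitters' processing notes, with no version. Detection calls were not used here. Probe sets were tied to genes by the platform annotation, 22436 to 1 gene, 95 to several and 34663 to none, and named through the synonyms of the RefSeq gene table, which all 22436 matched. RefSeq synonyms with the stem ORR numbered 1 to 5 denote type-B genes and were placed there.

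The deposited intensities were turned to log2 with no further normalization, filter or pseudocount. A linear model with a mean for each group was fitted in limma 3.58.1 (R 4.3.3) over 57194 probe sets and 36 arrays (24 residual and 6.16 prior degrees of freedom), with Benjamini-Hochberg adjustment over all probe sets of each comparison. Calls needed an adjusted p under 0.05 and a 2-fold change, and interactions the adjusted p alone. The number of arrays limits the precision. The fit was tested on simulated data. Alternatives were a one-way ANOVA as in the methods, a fit of the compared groups only, other normalizations, a pseudocount, a filter on dim probe sets, other thresholds, array weights, other variance priors, a replicate block and leaving out each array. Each gene of the 6 had 1 probe set, so no choice between probe sets arose.

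Named were all members, the called genes of each pathway list, at most 4 per list, and the 5 probe sets most like each of the 3 members with the widest span of group means; type-B, type-C and phosphotransfer genes below the call were named after their values were seen. The members, the lists and the contrasts over time were chosen with earlier results of these data known. Over all probe sets, same-numbered arrays mostly did not deviate together. Only 1 of 24 comparisons, T24P/T6P, had every correlation over 0.1 (range over the 24, -0.48 to 0.26). Among the type-A genes, replicate 1 was lowest for 5 of the 6 in T6P, 6 in T24P and 5 in R24P. Replicate 2 was highest for 6, 5 and 6 in the same groups. In R6P, by contrast, replicate 1 was highest for 5. Promoter sequences were not analysed here.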

Additional observations from a re-analysis of the deposited data

Results flagged for a closer look

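The response to infestation differed between the varieties or hours for these results, each by a test of the difference itself in limma, and no cause was tested. The interaction at 24 h, RH minus TN1, passed for *OsRR9* (1.30), *OsRR2* (1.16), *OsRR4* (1.03) and *OsRR6* (0.92), and for the pathway genes *CKX5* (1.20), *LOGL3* (-2.35), *LOGL9* (-1.64), *CKX11* (-1.60), *LOGL5* (-1.11), *HK3* (-0.79) and both probe sets of *HK5* (-0.65 and -0.55). Of all probe sets, 5.39% had a positive interaction that passed and 4.16% a negative one.

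In TN1 the response at 24 h was lower than that at 6 h by the log2 difference of -2.17 for *OsRR9*, -1.91 for *OsRR4*, -1.88 for *OsRR1*, -1.73 for *OsRR6*, -1.55 for *OsRR2* and -1.38 for *OsRR5*. That change itself differed between RH and TN1 for *OsRR9* (2.33), *OsRR2* (1.59), *OsRR4* (1.50) and *OsRR6* (1.32).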

How the results depend on the processing

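The 83 single differences with a passed test, of the type-A genes and the called pathway genes, were recomputed as 1457 values over the alternatives. None reversed its direction, 1311 stayed on the same side of the threshold and 146 did not, of which 75 came from leaving out 1 array and 41 from the adjusted p of the methods' one-way ANOVA. The replicate block, fitted although the numbers are not known to pair the arrays, left all 83 on the same side. It gave the same count of 7 calls after infestation.

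Among the counts of type-A genes, infestation gave 7 calls, and 1 by the ANOVA with adjustment and 12 with no minimum fold change. Puncturing gave 0, and 0 by the ANOVA with or without adjustment. Infestation against puncturing gave 7 likewise, and 1 and 12 under these settings. The varieties gave 2 calls, and 1 by the ANOVA without and 0 with adjustment, 1 with log2(value + 16), 1 with array weights and 10 with no minimum fold change. The hours gave 4, and 1 by the ANOVA with adjustment and 17 with no minimum fold change. The interaction gave 4, and 2 with the compared groups only, where *OsRR4* and *OsRR6* missed the threshold. Probe sets of the pathway and related lists gave 10, and 46 with no minimum fold change.

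Leaving out each array in turn gave 6 to 8 calls after infestation, 0 to 1 after puncturing, 6 to 9 for infestation against puncturing, 0 to 4 between varieties and 3 to 6 between hours. It gave 3 to 5 for the interaction, 6 to 7 for the response over time and 3 to 5 for its difference between varieties. For the pathway and related lists it gave 9 to 13. The filter on dim probe sets removed *OsRR5*. The ANOVA could not be fitted to the interactions. Precision was limited by 3 arrays per group and, for *OsRR5*, by signal near the array medians.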
